A study of Mus musculus with 461 samples.

Results

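The 58 cells captured on day 1 of a mouse reprogramming time course were set apart by their Sox2 transcript level. A cell counted as Sox2-high when Sox2 stood at 10 TPM (transcripts per 1000000) or more and as Sox2-low below that, which gave 27 Sox2-high and 31 Sox2-low cells of the 461 in the series. Sox2 TPM ran from 10.1 to 75.3 with a median of 27.2 in the Sox2-high cells, and from 0 to 9.08 with a median of 4.35 in the Sox2-low cells. The cells nearest the threshold held 9.06 and 9.08 TPM on the low side and 10.08 and 10.51 TPM on the high side. Because these values chose the members, Sox2 itself is left out of every result.

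All 461 cells were single mouse embryonic fibroblasts, or cells derived from them, with the OG2 transgene, on a mixed background labelled as 129SVJ, C57B6 and CBA. OG2 animals carry a green fluorescent protein gene under Pou5f1 (Oct4) regulatory sequence, and this reporter is not among the genes analysed here. Fibroblasts were kept in medium with 10% fetal bovine serum and reprogramming cells in iCD1 medium. Cells were captured on the Fluidigm C1, a chip that isolates cells in separate chambers and amplifies their polyadenylated RNA, and their titles carry 7F, the day and a prefix b1, b2 or b3 whose meaning is not stated. Which 7 factors were used is not labelled; 7F as published is Jdp2, Kdm2b, Map2k6, Glis1, Nanog, Esrrb and Sall4. Transcripts of the cocktail were already present in the day 0 cells of prefix b2 (median 594.5 TPM for Esrrb, 242.3 TPM for Nanog). Transcripts from a vector and from the native locus cannot be told apart in gene totals. The day 1 cells all carry the prefix b2, so both classes come from 1 set of cells and each is 1 sample. Cells are not replicates, and the day 1 differences therefore carry no test.

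Sox2 is a high-mobility-group transcription factor that binds DNA together with Oct4 and keeps embryonic stem cells pluripotent. It is a factor of the classical reprogramming mixture but not of 7F as published. Embryonic fibroblasts divide, arrest and build actin stress fibres to different degrees within a single culture. The first days of reprogramming are known for loss of the fibroblast programme, and faster division and a weak p53 response are known to favour the process.

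Levels were compared as the class mean of log2(TPM + 1) over cells, Sox2-high minus Sox2-low, for the 11476 genes other than Sox2 with 1 TPM or more in at least 10 of the 58 cells. A difference of 1, which is 2-fold on that scale, was counted as past the fold. In the Sox2-high cells 337 genes (2.94%) were higher by this measure and 237 (2.07%) were lower, and the median over all 11476 genes was 0.04. Transcripts of mitosis and of a few pluripotency genes were higher in the Sox2-high cells, while transcripts of the contractile apparatus and of p53 response genes were lower (the plot of gene lists by member). Sequencing depth was lower in the Sox2-high cells, with a median of 2.01 M expected counts per cell (M for 1000000) against 2.57 M. Differences were therefore also computed after thinning each cell to an equal number of counts. The median number of genes at 1 TPM or more was 7543 in the Sox2-high and 7665 in the Sox2-low cells.

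**Figure D1:**
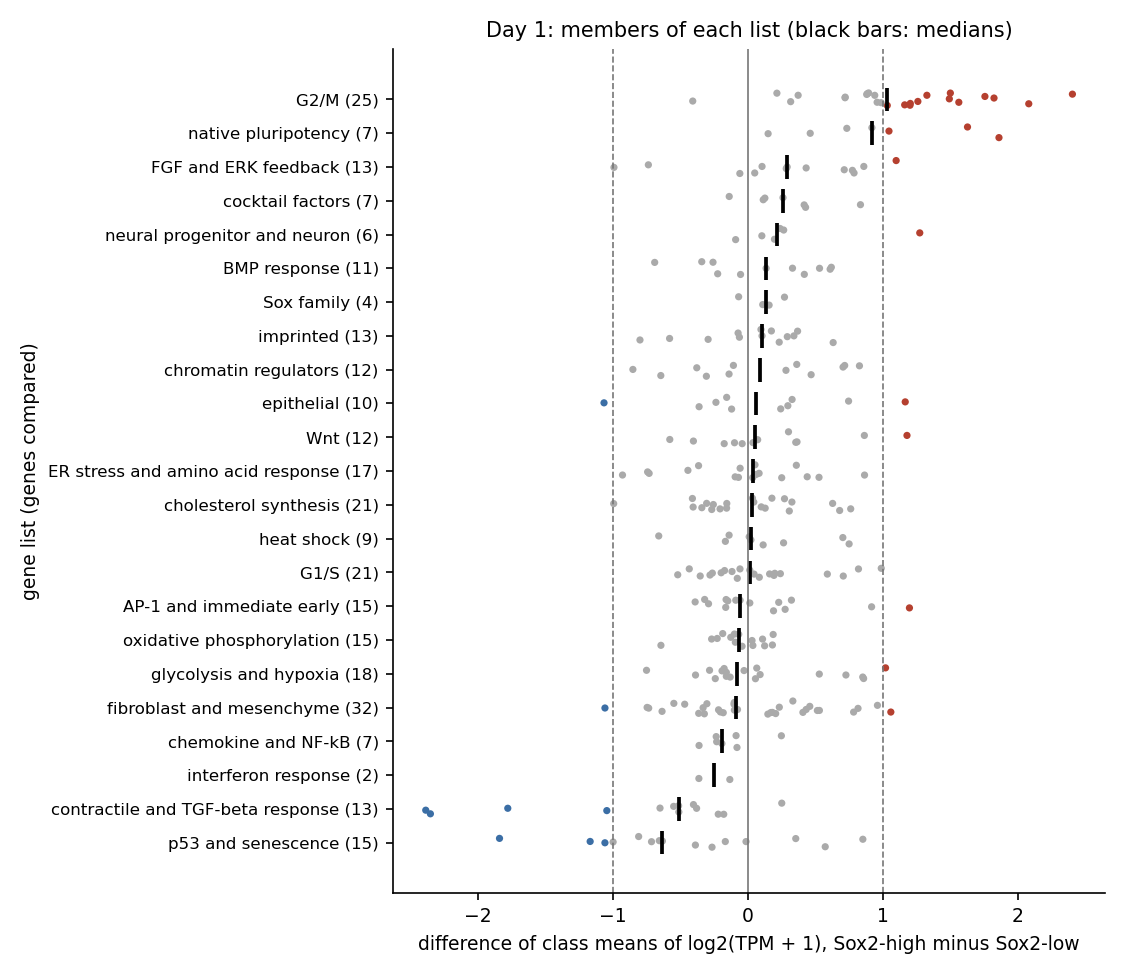
Each point is a gene of 1 of 23 lists, placed by its difference between the class means of log2(TPM + 1) at day 1, Sox2-high minus Sox2-low; dashed lines mark differences of 1 in each direction and black bars the list medians. The G2/M list (median 1.03) and the native pluripotency list (0.92) lie farthest to the right, and the p53 (−0.63) and contractile (−0.51) lists farthest to the left.

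Genes of G2 phase and mitosis made up the group with the most members past the fold. Of the 25 listed, all of which were compared, 13 were past the fold upward, none was past it downward, and 24 stood above 0 with a median of 1.03. Over all genes compared 2.94% were past the fold upward and 54.3% stood above 0. Birc5 (survivin), a subunit of the chromosomal passenger complex, ranged from 0 to 665.7 TPM with a median of 58.6 in the Sox2-high cells, and from 0 to 411.0 TPM with a median of 1.59 in the Sox2-low cells. Both classes thus held cells with much and with no Birc5, but the low end was filled mostly by Sox2-low cells. Its class means differed by 2.41 (SD over cells 3.0 and 2.9). Birc5 was detected, at 1 TPM or more, in 22 of 27 cells (81.5%, exact 95% Clopper-Pearson interval 61.9 to 93.7%) against 16 of 31 (51.6%, 33.1 to 69.8%). These intervals cover counting error only.

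The largest difference of any named gene was that of Cdca3, which encodes a regulator of entry into mitosis and is not a member of that list. Cdca3 was at a median of 33.4 TPM and a highest value of 499.1 TPM in the Sox2-high cells, and at a median of 0 and a highest value of 249.2 TPM in the Sox2-low cells. It was detected in 20 of 27 cells (74.1%, 53.7 to 88.9%) against 9 of 31 (29%, 14.2 to 48%). The class means differed by 2.67 (SD 3.0 and 2.4). Any count of Cdca3 was present in 20 and 12 cells, and in 14 and 8 cells after thinning to 1000000 counts, which kept 21 Sox2-high and 25 Sox2-low cells.

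Further mitotic genes followed the same order. Hmmr, a hyaluronan receptor that also acts at the spindle, differed by 2.08 (medians 18.8 and 0.32 TPM). Pbk, a kinase active in mitosis, differed by 2.05 (15.2 and 0.19 TPM), and the chromosome-binding kinesin gene Kif22 by 1.96 (10.4 and 0 TPM). Plk1, the polo-like kinase of mitotic entry and spindle assembly, differed by 1.83 (3.02 and 0 TPM), and the cyclin gene Ccnb2 by 1.76 (6.43 and 0 TPM). The single list member below 0 was Cdc20 (−0.41), an activator of the anaphase-promoting complex. The proliferation marker Mki67 and the topoisomerase gene Top2a stayed just under the fold (0.96 and 0.94).

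Across cells the G2/M list was spread over a wide range in both classes. The mean log2(TPM + 1) over its genes ran from 0.82 to 6.58 in the Sox2-high cells with a median of 3.52, and from 0.81 to 5.96 in the Sox2-low cells with a median of 1.70. It lay above the median of all 58 cells in 19 of 27 Sox2-high and 10 of 31 Sox2-low cells, so high and low mitotic scores occurred on both sides of the Sox2 threshold. Genes of G1/S and DNA replication did not share the pattern. Of 21 compared none was past the fold, 11 stood above 0 (54.3% over all genes) and the median was 0.02. Rrm2, a ribonucleotide reductase subunit, was the highest at 0.99 (medians 135 and 47.2 TPM), and the helicase gene Mcm3 stood at 0.59.

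**Figure D2:**
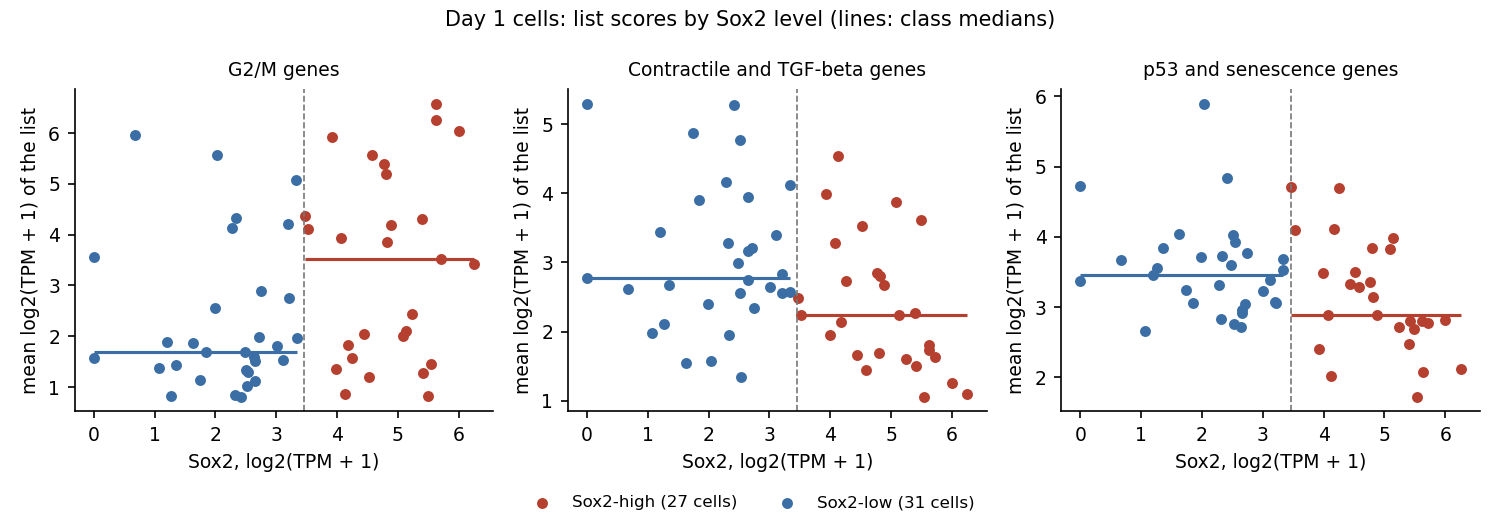
Each point is a day 1 cell, placed by its Sox2 level (x axis, log2(TPM + 1)) and by the mean log2(TPM + 1) over the genes of a list (y axis); the dashed line is the threshold of 10 TPM and the horizontal lines are class medians. The class medians are 3.52 and 1.70 for G2/M genes, 2.24 and 2.77 for contractile genes and 2.88 and 3.46 for p53 genes, Sox2-high first, and the classes overlap in each panel.

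Promoter sequences of mitotic genes are shown because these genes were higher together. Many such promoters are known to hold CCAAT boxes, bound by NF-Y, and a cell cycle homology region (CHR), bound by the MuvB complexes. The windows are the 250 bases before the RefSeq transcript start (build GRCm38), 5′ to 3′ on the gene's strand, with CCAAT and TTTGAA on either strand in capitals. Birc5 lies at chr11:117848987-117849236, plus strand, Hmmr at chr11:40733438-40733687, minus strand, and Ccnb2 at chr9:70421555-70421804, minus strand.
Birc5: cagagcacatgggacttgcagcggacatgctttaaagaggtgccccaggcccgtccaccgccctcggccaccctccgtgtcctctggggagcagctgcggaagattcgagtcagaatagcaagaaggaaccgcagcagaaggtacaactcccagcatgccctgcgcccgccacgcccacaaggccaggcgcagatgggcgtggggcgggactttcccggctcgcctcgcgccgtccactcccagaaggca
Hmmr: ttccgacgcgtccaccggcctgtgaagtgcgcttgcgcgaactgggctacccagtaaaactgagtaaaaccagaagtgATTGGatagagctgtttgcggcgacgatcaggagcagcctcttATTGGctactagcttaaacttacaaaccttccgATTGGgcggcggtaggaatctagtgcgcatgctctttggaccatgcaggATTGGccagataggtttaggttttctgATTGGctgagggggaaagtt
Ccnb2: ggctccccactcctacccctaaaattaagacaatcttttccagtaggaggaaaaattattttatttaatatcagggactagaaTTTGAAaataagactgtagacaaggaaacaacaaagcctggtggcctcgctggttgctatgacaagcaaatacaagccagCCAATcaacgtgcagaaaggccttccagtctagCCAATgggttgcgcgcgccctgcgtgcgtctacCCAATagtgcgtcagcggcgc
The Birc5 window holds neither motif, that of Hmmr 5 CCAAT boxes, and that of Ccnb2 3 CCAAT boxes and 1 CHR. Of the 25 genes of the G2/M list 21 had a RefSeq window, and 18 of these 21 (85.7%) hold a CCAAT box and 7 (33.3%) a CHR. Among the 27018 windows of all genes the shares were 34.5% and 16.3%. Among the 13 genes past the fold 11 had a window, of which 8 hold a CCAAT box and 1 a CHR. A match is a run of letters in the window and not a measured binding site.

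Contractile genes were lower in the Sox2-high cells. Of 16 listed genes of the contractile apparatus and of the TGF-beta response 13 were compared, 4 were past the fold downward, none upward, and 12 stood below 0 with a median of −0.51. Over all genes compared 2.07% were past the fold downward and 45.7% stood below 0. Acta2, the smooth muscle actin of activated fibroblasts, ranged from 0 to 1468 TPM with a median of 4.83 in the Sox2-high cells, and from 0 to 3309 TPM with a median of 72.1 in the Sox2-low cells. Its class means differed by −2.35 (SD 3.4 and 3.3). Acta2 was detected in 17 of 27 Sox2-high cells (63%, 42.4 to 80.6%) and in 28 of 31 Sox2-low cells (90.3%, 74.2 to 98%), so the cells without it were mostly Sox2-high, while the highest levels of both classes overlapped.

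Myl9, the regulatory light chain of nonmuscle and smooth muscle myosin, had the lowest difference of all genes compared, at −2.39 (SD 2.5 and 3.5). Its TPM reached 365 with a median of 0 in the Sox2-high cells and 1272 with a median of 43.2 in the Sox2-low cells. Both genes were detected together in 11 of 27 Sox2-high and 20 of 31 Sox2-low cells, and neither was detected in 8 and 2 cells. Tagln (transgelin), an actin-bundling protein, differed by −1.78 (medians 57.4 and 172 TPM), and the tropomyosin gene Tpm2 by −1.04 (8.27 and 22.9 TPM). Under the fold were Tpm1 (−0.51), Cnn1 (−0.51) and the matrix signalling gene Ctgf (−0.22).

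Serum response factor binds the CArG box of many contractile genes, searched here by its consensus, which reads the same on both strands. The Myl9 window (chr2:156775214-156775463, plus strand) is shown with its CArG box in capitals, since Myl9 led the lower genes.
Myl9: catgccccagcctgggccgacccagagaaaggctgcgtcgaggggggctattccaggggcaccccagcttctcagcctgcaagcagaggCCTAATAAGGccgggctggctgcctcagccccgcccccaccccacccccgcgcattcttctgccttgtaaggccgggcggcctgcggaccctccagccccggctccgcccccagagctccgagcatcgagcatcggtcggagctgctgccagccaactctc
Of the 10 contractile list members with a RefSeq window Myl9 alone holds an exact match to this consensus (10% of 10, against 1.40% of all 27018 windows). The Acta2 window of the same length holds no exact match. It does hold ccctatatgg and ccttgtttgg, near matches that the search did not count. Windows for Tagln, Klf5, Pbk and Tdh are not shown.

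Genes induced by p53 or linked to arrest were lower as well. Of 17 listed 15 were compared, 3 were past the fold downward, none upward, and 12 stood below 0 with a median of −0.63. Among all genes compared 2.07% were past the fold downward and 45.7% stood below 0. Btg2, an antiproliferative p53 target, ranged from 0 to 143 TPM with a median of 5.31 in the Sox2-high cells, and from 0.79 to 245 TPM with a median of 25.7 in the Sox2-low cells. The means differed by −1.84 (SD 2.6 and 1.8), and 30 of 31 Sox2-low but 21 of 27 Sox2-high cells had Btg2 at 1 TPM or more. Trp53inp1, a stress-induced p53 cofactor, differed by −1.17 (medians 13.6 and 29.3 TPM) and Perp, an apoptosis effector of p53 and desmosome protein, by −1.06 (0 and 3.38 TPM). Cdkn1a (p21), the best known p53 target and an inhibitor of cyclin-dependent kinases, was detected in every cell of both classes, at medians of 557 and 1069 TPM, with a difference of −0.81 (SD 1.6 and 1.0) that stayed under the fold. The highest of the 3 members above 0 was Pmaip1 (0.85), which encodes the cell death protein Noxa. Cdkn2a, detected in 2 and 3 cells, was too sparse to compare.

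Of 31 native pluripotency genes only 7 were detected often enough to be compared, and the other 24 have no difference to report. All 7 stood above 0 with a median of 0.92, and 3 were past the fold. Among all genes compared 54.3% stood above 0 and 2.94% were past the fold upward. Tdh, the threonine-catabolizing enzyme on which mouse embryonic stem cells rely, ranged from 0 to 354 TPM with a median of 28.7 in the Sox2-high cells, and from 0 to 457 TPM with a median of 1.16 in the Sox2-low cells. The means differed by 1.86 (SD 3.3 and 2.5). The number of cells with Tdh was the same in both classes, 16 of 27 (59.3%, 38.8 to 77.6%) and 16 of 31 (51.6%, 33.1 to 69.8%), and among these cells the medians were 105 and 8.76 TPM. The classes thus differed more in the amount of Tdh per positive cell than in the share of such cells. Klf5, a Kruppel-like factor of naive pluripotency, differed by 1.63 (medians 9.45 and 0.97 TPM; SD 2.1 and 1.6) and was detected in 23 of 27 cells (85.2%, 66.3 to 95.8%) against 15 of 31 (48.4%, 30.2 to 66.9%). Any count of Klf5 was present in 26 of 27 and 26 of 31 cells, and after thinning in 18 of 21 and 18 of 25.

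Pou5f1 (Oct4), the partner of Sox2 in the pluripotency network, was sparse. It was detected in 8 of 27 Sox2-high cells (29.6%, 13.8 to 50.2%) with a highest value of 84.9 TPM, and in 4 of 31 Sox2-low cells (12.9%, 3.63 to 29.8%) with a highest value of 4.92 TPM. The difference of means was 1.05 (SD 2.2 and 0.6), and the median was 0 in both classes. Klf4 (0.92) was under the fold. Nr0b1 was detected in 4 and 2 cells, Dppa5a in 4 and 2, Utf1 in 3 and 1, and the naive marker Zfp42 in 0 of 27 and 0 of 31. By a floor of 3 cells this allows up to 11.1% and 9.68% of cells at 1 TPM or more (exact upper bounds 12.8% and 11.2%), and 1 Sox2-low cell held Zfp42 at 0.66 TPM.

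The 7 cocktail factors differed less than these genes. None was past the fold, and the differences ran from −0.14 (Glis1) to 0.84 (Map2k6), with a median of 0.26. Map2k6, a kinase that activates p38, ranged from 140 to 2064 TPM with a median of 541 in the Sox2-high cells and from 2.49 to 1727 TPM with a median of 406 in the Sox2-low cells. Esrrb, an orphan nuclear receptor, was at medians of 552 and 545 TPM and differed by 0.13. Nanog stood at 0.43, the zinc finger factor gene Sall4 at 0.42, Jdp2 at 0.26 and Kdm2b at 0.12. Factor transcripts other than those of Glis1 were thus detected in all 58 cells.

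Lists of the starting cell type and of other fates each held at most 1 member past the fold in each direction. Over all genes compared the shares were 2.94% upward and 2.07% downward, and these short lists were not tested against them. Of 32 fibroblast and mesenchyme genes compared, the matrix protease gene Mmp2 was past it upward (1.06, but 0.04 with counts summed per class) and the transcription factor gene Snai2 downward (−1.06), and the median was −0.09. Snai2 was detected in 6 of 27 Sox2-high and 16 of 31 Sox2-low cells. Of 10 epithelial genes the desmosome gene Dsp stood at 1.17 and the claudin gene Cldn4 at −1.07, while Cdh1 (E-cadherin) stood at 0.30. Of 6 neural genes Prom1 was past the fold (1.28), a difference that was −0.03 when counts were summed per class instead of averaged on the log scale. None of the 4 other Sox genes compared was past it (Sox4 0.27, Sox11 0.16, Sox9 0.11, Sox6 −0.07).

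The remaining lists added single genes. Myc, a driver of cell growth, stood at 1.2 (medians 19.2 and 4.73 TPM), and the Wnt feedback gene Axin2 at 1.18 (3.59 and 0.62 TPM). Spry2, a feedback inhibitor of receptor tyrosine kinase signalling, stood at 1.10 (518 and 214 TPM), while its relative Spry1 stood at −0.99. Pdk1, which restrains pyruvate entry into the citric acid cycle, stood at 1.02, but at 0.02 after thinning. No gene past the fold came from the lists for interferon response (2 compared), chemokines and NF-kB (7), cholesterol synthesis (21), oxidative phosphorylation (15), ER stress and amino acid response (17), heat shock (9), BMP response (11), imprinted genes (13) or chromatin regulators (12). Among all genes compared 2.94% were past it upward and 2.07% downward.

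Several of the leading genes belonged to no list. Lcn2, an iron-siderophore binding lipocalin, differed by 2.22 and was at a median of 45.3 TPM in the Sox2-high and 0 TPM in the Sox2-low cells, although its highest value, 2825 TPM, was in a Sox2-low cell. Pdp2, a phosphatase that activates pyruvate dehydrogenase, differed by 2.0 and was detected in 24 of 27 cells (88.9%, 70.8 to 97.6%) against 13 of 31 (41.9%, 24.5 to 60.9%). Any count of Pdp2 was present in 26 and 21 cells, and after thinning in 19 of 21 and 15 of 25. Pigh, of the first step of GPI anchor synthesis, differed by 1.87, Mogat2, a monoacylglycerol acyltransferase, by 1.86, and Gle1, an mRNA export factor, by 1.81. Mogat2 was detected in 17 of 27 cells (63%, 42.4 to 80.6%) against 6 of 31 (19.4%, 7.45 to 37.5%).

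Among the lower genes, Vnn1, which encodes a pantetheinase, differed by −2.31 (medians 1.97 and 63.8 TPM) and was detected in 16 of 27 against 28 of 31 cells. Pecr, a peroxisomal reductase of fatty acid elongation, never exceeded 6.55 TPM in the Sox2-high cells but reached 133 TPM in the Sox2-low cells, and differed by −2.0 (SD 0.9 and 2.6). Glipr2 differed by −1.80, Tmem5, a glycosyltransferase of dystroglycan, by −1.79, Oraov1 by −1.76, the zinc finger gene Zfp511 by −1.72, and Haus7, an augmin subunit, by −1.72. The nonclassical MHC gene H2-T22 differed by −1.73, but it has near-identical relatives between which the authors' counting could split reads, so its value is uncertain.

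**Figure D3:**
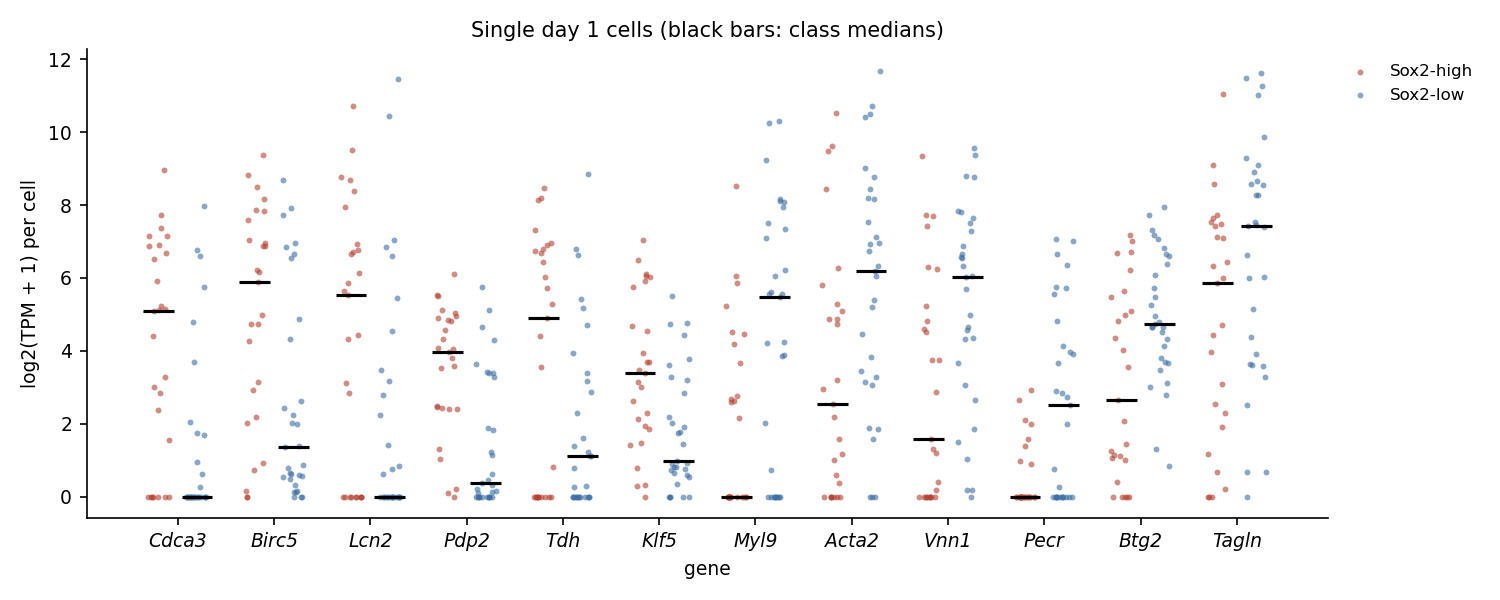
Each point is the level of a gene in a day 1 cell, log2(TPM + 1), for 12 of the genes described, with Sox2-high cells in red, Sox2-low cells in blue and class medians as black bars. Cdca3 and Myl9 have a median of 0 TPM in the Sox2-low and in the Sox2-high class, in that order, and for every gene cells of both classes reach down to or near 0.

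Because mitotic genes differed between the classes, each difference was also adjusted for the G2/M score of the cell in a linear model. The list that defines the score then had a median of 0.11, which follows from its construction. The contractile median was −0.37 with 3 genes past the fold downward, and the p53 median −0.72 with 4 downward. The native pluripotency median was 1.03 with 4 upward. Over all 11476 genes the adjusted differences put 413 past the fold upward and 245 downward. Other lists changed too: G1/S had a median of −0.42 with 2 downward, and fibroblast and mesenchyme had 3 upward and 1 downward. Acta2 (−2.08), Myl9 (−2.31), Btg2 (−1.79), Tdh (1.8), Pdp2 (1.87) and Mogat2 (2.27) kept differences past the fold. Birc5 (0.80), Hmmr (0.68), Pbk (0.80), Kif22 (0.88) and Plk1 (0.81) did not, and Cdca3 was at 1.31. Birc5, Hmmr and Plk1 are members of the list behind the score, so their smaller differences follow in part from its construction. Pbk, Kif22 and Cdca3 are not members.

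Both classes were also set beside days 0 and 3 of the same prefix. Of the 12 leading lower genes 7 were lower by 1 or more at day 3 than at day 0, and of the 12 leading higher genes 2 were higher. Among all 11476 genes compared 968 were lower and 1589 higher by that amount. In mean log2(TPM + 1), Acta2 stood at 9.04 in the 54 cells of day 0, 5.71 in the Sox2-low cells and 3.35 in the Sox2-high cells of day 1, and 0.41 in the 58 cells of day 3. Tagln stood in the same order at 10.75, 6.61, 4.83 and 0.46, and Myl9 at 7.02, 4.43, 2.05 and 0.30. Glipr2 ran from 7.65 through 6.38 and 4.58 to 1.92. For these 4 genes both classes lay between day 0 and day 3, with the Sox2-high cells nearer to day 3. Tdh took the opposite course, from 0 through 1.97 and 3.83 to 4.58.

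Other genes did not lie along that course. Birc5 was at 4.04 on day 0 and 4.33 on day 3, so the Sox2-high mean of 5.0 was above both and the Sox2-low mean of 2.59 was below both. Cdca3 was at 3.53 and 4.21, with Sox2-high cells between them at 4.05 and Sox2-low cells below both at 1.38. Lcn2, at 0.41 on day 0 and 0.22 on day 3, was above both in each class of day 1 (4.41 and 2.18). Klf5 was highest in the Sox2-high cells (3.41), against 0.78 on day 0, 1.78 in the Sox2-low cells and 1.78 on day 3. Among p53 genes, Btg2 was at 6.65 on day 0 and 4.32 on day 3, with Sox2-low cells at 4.95 and Sox2-high cells at 3.11. Trp53inp1 rose from 3.02 to 5.04 and Cdkn1a from 8.41 to 9.65. For these 2 genes the Sox2-high cells (3.76 and 9.01) were nearer to day 0 than the Sox2-low cells (4.92 and 9.82).

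**Figure D4:**
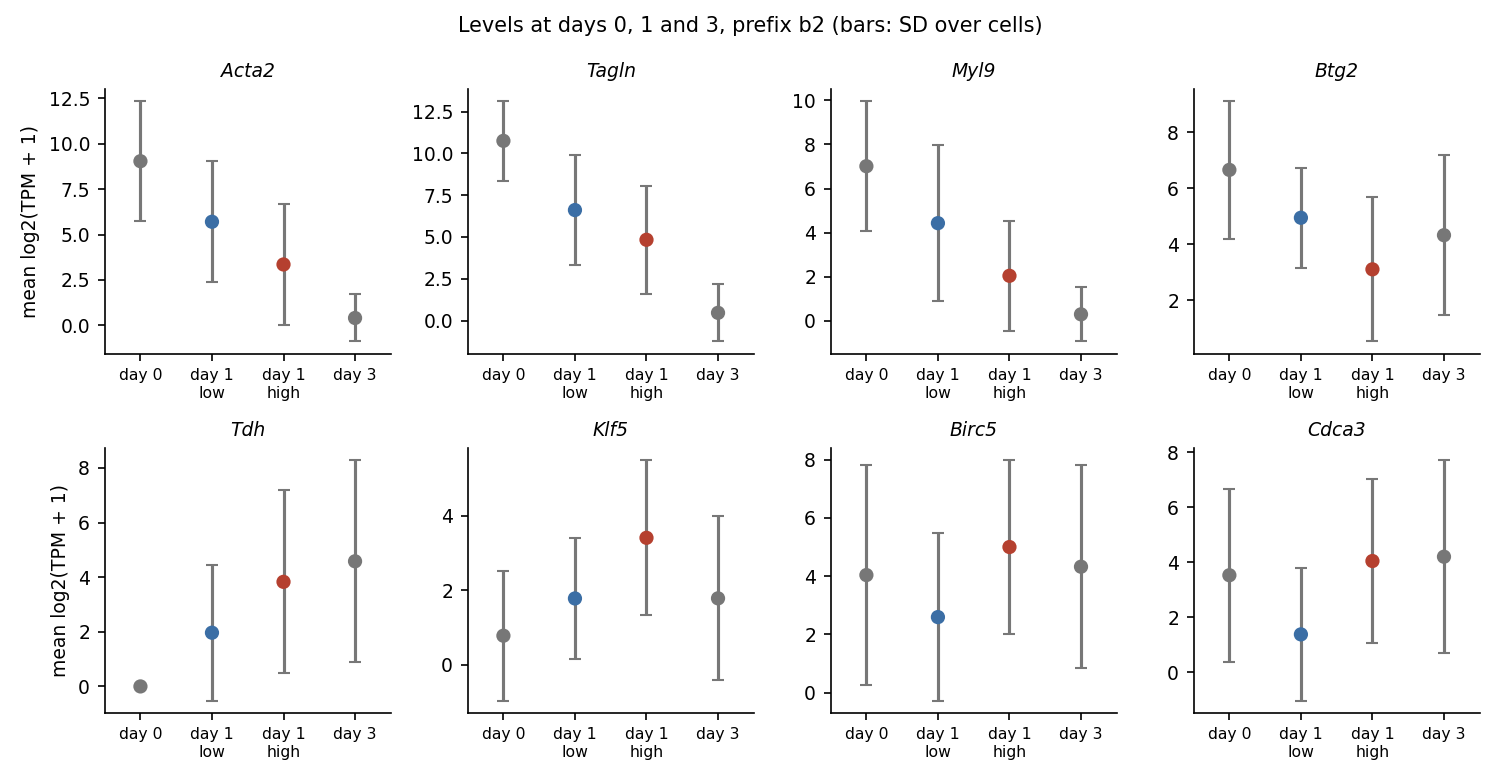
Mean log2(TPM + 1) of 8 genes in the day 0 cells, the Sox2-low and Sox2-high cells of day 1 and the day 3 cells, all of prefix b2; bars are the SD over cells. Acta2, Tagln and Myl9 step down and Tdh steps up from left to right, while Birc5 and Cdca3 are lowest in the Sox2-low cells. Btg2 is lowest and Klf5 highest in the Sox2-high cells.

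The same description was made over all genes, grouped by their change from day 0 to day 3, which the Sox2 split did not use. This grouping was chosen after the data were seen. Of the 968 genes whose mean was lower by 1 or more at day 3 than at day 0, 637 (65.8%) were lower in the Sox2-high than in the Sox2-low cells of day 1, with a median of −0.18, and 57 (5.89%) were past the fold downward against 23 upward. Of the 1589 genes higher by 1 or more at day 3, 1039 (65.4%) were higher in the Sox2-high cells, with a median of 0.18, and 73 (4.59%) were past the fold upward against 23 downward. Over all 11476 genes 45.7% were lower and 54.3% higher. Genes are not independent replicates, and these shares carry no test.

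The split at a Sox2 TPM of 10 was repeated in cells that the day 1 split did not use. No day 0 cell reached 10 TPM of Sox2 (0 of 54 in prefix b2 and 0 of 20 in prefix b1). Day 3 of prefix b1 held 24 Sox2-high and 37 Sox2-low cells, day 3 of prefix b2 held 36 and 22, and day 4 of prefix b3 held 40 and 19. The sign of each difference was compared with day 1, and the lower and higher genes were not tested against each other. Of the 12 leading lower genes 9, 10 and 11 had the same sign in these sets and 8 had it in all 3, namely Myl9, Acta2, Pecr, Btg2, Glipr2, Tagln, H2-T22 and Haus7. Over all 5246 genes that were lower at day 1 the shares were 47%, 56.6% and 42.8%, and 15.2% in all 3. Of the 12 leading higher genes 6, 7 and 4 had the same sign, and Tdh alone had it in all 3. Over all 6230 genes that were higher the shares were 49.2%, 47.4% and 59.5%, and 16.8% in all 3. Over the genes past the fold the sign recurred in all 3 sets for 61 of 237 lower (25.7%) and 78 of 337 higher genes (23.1%), and in day 4 for 54% and 67.1%.

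**Figure D5:**
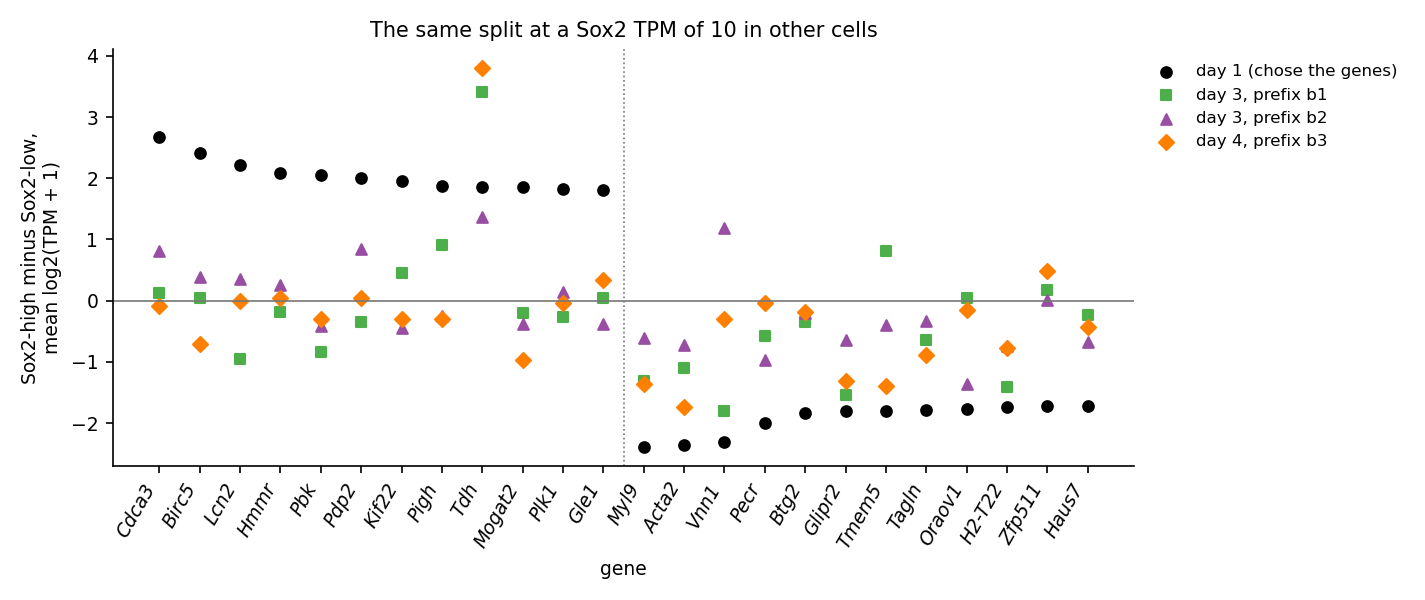
Difference of class means of log2(TPM + 1), Sox2-high minus Sox2-low, for the 12 leading higher (left) and 12 leading lower genes (right) in the day 1 cells that chose them and in 3 other sets of cells. Tdh (3.41, 1.36 and 3.80) is above 0 in every set, while Cdca3 lies at 0.12, 0.81 and −0.08 and Birc5 at 0.04, 0.39 and −0.71.

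By list, the contractile genes had medians of −0.65, −0.34 and −0.78 in day 3 b1, day 3 b2 and day 4, with 1, 1 and 2 of 13 members above 0. Of all 5246 genes lower at day 1, 47%, 56.6% and 42.8% were below 0 in these sets. The p53 list had medians of −0.35, −0.47 and −0.64, and the native pluripotency list 0.47, 0.82 and 0.77. The G2/M list, with 1.03 at day 1, had medians of −0.05, 0.29 and 0.27. The fibroblast and mesenchyme list, at −0.09 on day 1, had −0.48, −0.43 and −1.38.

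These 3 sets allow a test with the set as replicate. Expected counts were summed by set and class and compared with edgeR's quasi-likelihood F test, two-sided, with the set as a block and 2 residual degrees of freedom. Nothing in the labels says that the sets came from separate cultures or animals, so the p-values measure only the spread between these sets, which may be technical. No gene of 16437 (0%) had a Benjamini-Hochberg adjusted p under 0.05, while 938 had an unadjusted p under 0.05, 438 higher and 500 lower. DESeq2 called 511 genes and limma on set means of log2(TPM + 1) called 46. Tagln, at 96.1, 44 and 111 CPM (counts per 1000000) in the Sox2-low sums and 6.49, 3.30 and 5.36 CPM in the Sox2-high sums, was lower in 3 of 3 sets, by a log2 fold change of −4.00 ± 0.36 (SE, edgeR adjusted p = 0.428). Acta2, at 11.7, 8.76 and 98.2 CPM against 0.0482, 0.486 and 3.40 CPM, gave −5.42 ± 0.94 (edgeR adjusted p = 0.664). The lowest Acta2 value, 0.0482 CPM, lies near the floor for sums of 20.58 to 103.9 M counts. Tdh, at 54.5, 156 and 92.1 CPM against 169, 324 and 333 CPM, gave 1.51 ± 0.23 (edgeR adjusted p = 0.638). For each of these genes the sums of the classes did not overlap. How many of the 16437 genes separate in this way was not counted, so the separation does not set these genes apart. Averaged over cells as log2(TPM + 1), the differences were smaller for Tagln (−0.65, −0.34 and −0.88) and Acta2 (−1.10, −0.73 and −1.74). Those for Tdh were 3.41, 1.36 and 3.80. DESeq2 called all 3, with adjusted p of 2.59e-26 for Tagln, 3.22e-11 for Acta2 and 3.85e-05 for Tdh, the lowest over 10 alternatives, the highest being 1 for each. With limma Acta2 (limma adjusted p = 0.045) and Tdh (limma adjusted p = 0.0053) were also called, but Tagln was not. Birc5 (0.06 ± 0.27, edgeR adjusted p = 0.995) and Cdca3 (0.20 ± 0.30, edgeR adjusted p = 0.965) showed no difference of the day 1 size.

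Markers of the labelled cell type and of others were read in both classes. All 10 fibroblast markers were detected in each class, with summed levels of 180 to 4395 TPM (median 384) in the Sox2-high and 135 to 2892 TPM (median 532) in the Sox2-low cells. Of 10 pluripotent cell markers 5 were detected in each class, with summed medians of 45.4 and 2.48 TPM, and Zfp42, Dppa4, Fgf4 and Lin28a were undetected in both. These sums were mostly Tdh, described above, with medians of 28.7 and 1.16 TPM on its own. The highest sum in the Sox2-low cells, 457 TPM, equalled the highest Tdh value there. Pou5f1, Dppa5a and Utf1 had medians of 0 in both classes. The gap between the summed medians is therefore no result separate from Tdh. The macrophage markers Ptprc, Adgre1, C1qa, C1qb, C1qc, Tyrobp and Lyz2, the muscle markers Myod1, Myog and Pax7, the endothelial markers Tie1, Cldn5 and Erg and the neural markers Sox1, Sox3 and Dcx were undetected in both classes. Other members of those lists were detected, with 3 of 11 macrophage markers in each class (summed TPM up to 12.7 in Sox2-high and 81.7 in Sox2-low cells), 4 of 8 muscle markers in each (up to 63.1 and 73.1), 6 and 5 of 10 endothelial markers (up to 93.2 and 384) and 5 and 7 of 10 neural markers (up to 158 and 582). The summed median of 8 neural crest and glia markers was 16.9 and 20.9 TPM, and that of 10 epithelial markers 40.7 and 42.8 TPM. Whether cells captured together contributed to either class was not tested.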

How the data were processed

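Expected counts and TPM per gene and cell were deposited by the authors as whole-series tables, and per the submitters' processing notes they were made with bcl2fastq and RSEM 1.2.22 (aligner, genome build, annotation: not given in the sources used here). Counts are reads without molecular identifiers. Cells were assigned by title, and 7 columns of each table were not used. Rows of both tables were paired by symbol (31141 of 31673, of which 474 by an older symbol). Mitochondrial genes are not analysed here, and no doublet caller was run. Members and gene lists were chosen with earlier results of these data known. Named are the 12 largest differences in each direction among genes detected in at least 50% of the cells of the higher class, leaving out predicted genes, ribosomal proteins and histones, up to 4 members of each list, and the cocktail factors and other preset genes, some left out for length and some not reported here; Kif22, Pbk and other leading genes come from this rule, and list members beyond 4 (Cdc20, Pmaip1, Tpm1, Cnn1, Ctgf) were added after their values were seen. Detection intervals are exact (Clopper-Pearson, 95%) and cover counting error only; a class at 0 is given the share that 3 cells would make.

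The Sox2-high cells held 0.766 to 5.08 M and the Sox2-low cells 0.757 to 5.41 M expected counts per cell (M for 1000000). Counts of the other sets, summed by set and class (20.58 to 103.9 M) and rounded, were tested with edgeR 4.0.16 (TMM, set as block; SE is the fold change over the root of F), DESeq2 1.42.0 and limma 3.58.1. Scripts were tested on simulated data. The alternatives were other Sox2 thresholds, pseudocounts, filters, scalings, thinning and covariates. Cell numbers in the titles do not pair cells across sets. Promoter windows are RefSeq's.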

Additional observations from a re-analysis of the deposited data

Results flagged for a closer look

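Of the genes with the largest differences at day 1, 3 had the opposite sign in each of the other 3 sets split at the same Sox2 level, a contrast between sets that was not tested. Pbk stood at 2.05 at day 1 and at −0.84, −0.42 and −0.30 in day 3 b1, day 3 b2 and day 4. Mogat2 stood at 1.86 at day 1 and at −0.20, −0.39 and −0.96. Zfp511 stood at −1.72 at day 1 and at 0.18, 0.02 and 0.49. Beyond these leading genes, 2 list members past the fold at day 1 also had the opposite sign in each set. Mmp2 (1.06 at day 1) stood at −1.38, −2.68 and −3.24, and Axin2 (1.18) at −0.73, −0.21 and −0.80.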

How the results depend on the processing

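The number of genes past the fold depended on the processing more than the direction of the leading genes did. Against 337 higher and 237 lower genes, a Sox2 threshold of 5 TPM gave 644 and 124, the highest against the lowest 19 cells by Sox2 872 and 465, a pseudocount of 0.1 gave 1190 and 768, a pseudocount of 10 gave 14 and 13, thinning to 1000000 counts 714 and 506, and counts summed per class 1292 and 1243. A threshold of 20 TPM gave 427 lower genes and DESeq2 size factors 368. The cause was not tested. The 12 leading higher and the 12 leading lower genes had the same direction in each of the 14 alternatives that gave them a value. These alternatives reuse the day 1 cells that chose the genes, so the kept direction is no independent support. With a pseudocount of 10, 5 of the leading higher and 8 of the leading lower genes were past the fold. At 5 TPM these numbers were 10 and 9, and with summed counts 11 and 10. Of 39 named genes past the fold Prom1 changed sign, from 1.28 to −0.028 with summed counts, where Mmp2 stood at 0.04; Pdk1 stood at 0.02 after thinning. Of 77 named genes under the fold 38 changed sign in at least 1 alternative. In the other sets edgeR called 0 genes with or without the replicate block, without a filter, with the sets of days 5 and 7, at 5 or 20 TPM and without each set in turn (0 to 0), while DESeq2 called 229 higher and 282 lower and limma 21 and 25. Over the fits without 1 of the sets the log2 fold changes were −4.12 to −3.81 for Tagln, −6.07 to −4.51 for Acta2 and 1.35 to 1.76 for Tdh; over all 10 alternatives they were −5.22 to −0.62, −6.07 to −1.19 and 1.35 to 2.86, the smallest for Tagln and Acta2 and the largest for Tdh from limma on means of log2(TPM + 1). Without the replicate block Tagln was at −4.05. Cell numbers do not pair samples, so the set was the block. With 1 set of day 1 cells, the spread between captures cannot be estimated.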
